A study of Mus musculus with 12 samples.

Results

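Bone marrow neutrophils of wild-type mice were cultured for 24 h with tauro-β-muricholic acid (Tβ-MCA) or with taurocholic acid (TCA), and their mRNA levels were compared gene by gene. Both compounds are primary bile acids joined to the amino acid taurine, so the comparison held the conjugate fixed and changed the steroid. It was made between the 3 Tβ-MCA and the 3 TCA libraries, chosen by the names of their columns, which are 6 of the 12 libraries of the series. The other libraries were 3 of neutrophils given PBS, the vehicle, and 3 given 200 μM of the glycine conjugate GCA, and they entered the model only to estimate the spread between replicates. All 12 cultures were of WT genotype in RPMI 1640 with fetal bovine serum. The labels describe the cells as Ly6G+ and sorted with EasySep beads, and the study's methods describe density separation followed by kit enrichment from female mice of the C57BL/6 strain, aged 4 to 6 weeks. Neither source says that replicates came from separate mice or cultures, so p-values measure the spread between these libraries, which may be technical. The dose was 200 μM for TCA in both sources. For Tβ-MCA it was 10 μM in the labels and 200 μM in the study's methods, so if the labels are right the compound and its dose cannot be told apart in any difference below.

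Bile acids are steroid detergents that the liver makes from cholesterol and joins to taurine or glycine before secretion. Cholic acid carries a hydroxyl group on the C ring of the steroid that β-muricholic acid lacks, while β-muricholic acid, a bile acid typical of mice, carries an additional hydroxyl group on the B ring and has its neighbouring hydroxyl group in the opposite orientation. Bile acids also act as signals, mainly through the nuclear receptor FXR (gene Nr1h4), which forms a dimer with RXR, and through the membrane receptor TGR5 (Gpbar1), which raises cAMP. Tβ-MCA is known as an FXR antagonist. Neutrophils are short-lived phagocytes that leave the bone marrow with their granule proteins already made, and they change their transcription with priming, stress and ageing in culture.

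The 6 libraries held between 32757389 and 41375925 counts, and 3 counts, taken as the limit of detection, corresponded to 0.0725 to 0.0931 CPM (counts scaled to the TMM-adjusted library size). Mitochondrial genes held 0.369% to 0.492% of the counts. Tβ-MCA replicate 5 stood apart from replicates 3 and 4. Over 615 genes chosen for a difference of at least 2-fold with replicate 5 left out, and on a scale where the TCA mean is 0 and the mean of Tβ-MCA replicates 3 and 4 is 1, replicate 5 lay at a median of 0.25. Its distance from replicates 3 and 4 is partly built into the choice of those genes. On the same scale GCA replicate 4 lay at 0.336, while the other GCA libraries, the PBS libraries and the single TCA libraries lay between -0.0329 and 0.0833. The values of all 3 Tβ-MCA libraries are therefore given one by one, always in the order of replicates 3, 4 and 5, and the TCA values in the same order.

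The labelled cell type was checked against marker genes. The 12 neutrophil markers summed to between 40476 and 45217 CPM with Tβ-MCA and between 46945 and 56968 CPM with TCA, by far the highest sum of the 12 marker lists. S100a9 and Ngp were the largest parts of these sums. Mki67 and Top2a, listed here as granulocyte progenitor markers, were also high in the 6 libraries, at 1787 to 2082 CPM and 556 to 638 CPM. The sums therefore do not show that all cells were mature neutrophils. All 12 neutrophil markers were tested, and 3 of them (25%, against 1.29% of all genes tested) fell, namely Ly6g, Mmp8 and S100a8. Ly6g, the surface protein used to recognise mouse neutrophils, was at 7.54, 8.32 and 12.9 CPM with Tβ-MCA and at 19.6, 17 and 18.3 CPM with TCA. Its level was lower in each Tβ-MCA library than in any TCA library (log2 fold change -0.93, SE 0.18, adjusted p = 0.0346; here and in all tests below from the quasi-likelihood test of edgeR, adjusted by the Benjamini-Hochberg method). Markers of other myeloid cells were lower as well. The 16 markers of monocytes and macrophages summed to 2866, 3004 and 6022 CPM in the Tβ-MCA libraries and to between 7105 and 8173 CPM with TCA, and none of the 16 was at 0 throughout. Lyz2, which neutrophils express too, supplied 2185, 2103 and 3294 CPM of the Tβ-MCA sums and 3934, 4199.9 and 4362 CPM of the TCA sums. Fn1, another of the 16, supplied 50.3, 54.4 and 1233 CPM of the Tβ-MCA sums and 1714, 2132 and 1948 CPM of the TCA sums. The 9 eosinophil markers summed to between 64.6 and 147 CPM with Tβ-MCA and to between 159 and 254 CPM with TCA. None of these 3 sums overlapped between the groups, which in 3 against 3 libraries gives the smallest exact two-sided permutation p possible, 0.1. In such bulk libraries, fewer cells of a type and less RNA per cell cannot be told apart, and the part of these cells in the results below was not tested except where a value is given.

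**Figure D1:**
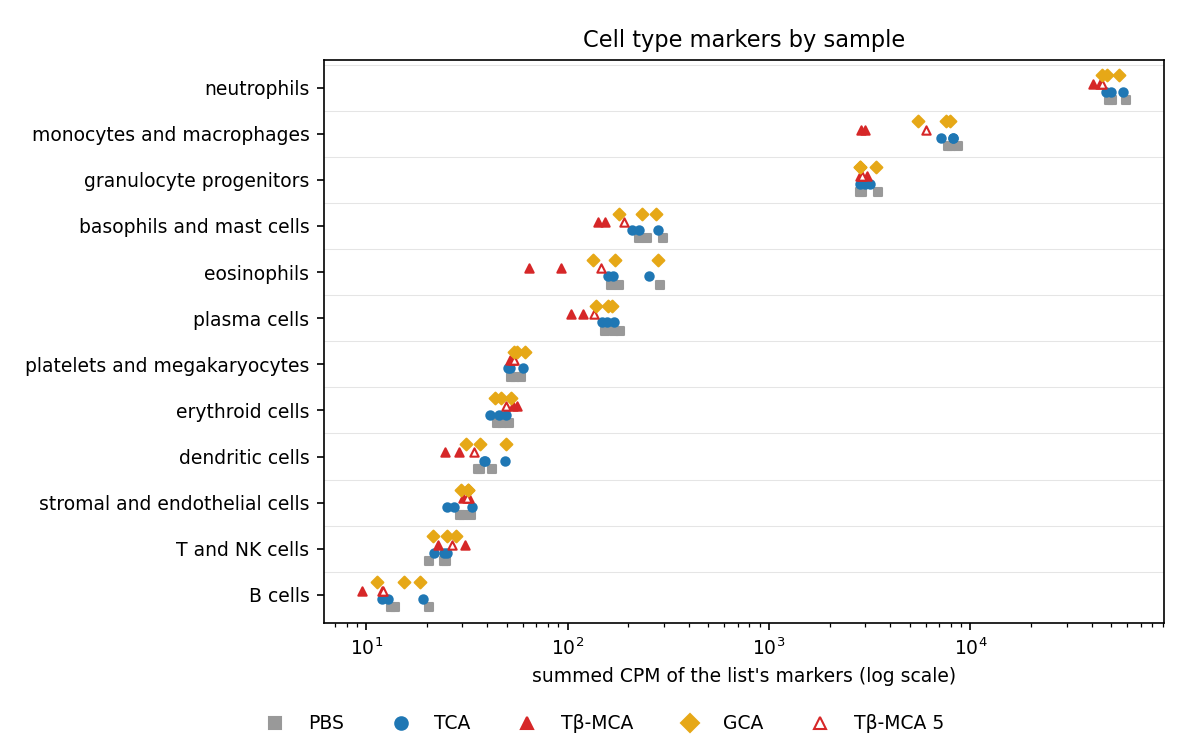
Summed CPM of the marker genes of 12 cell types (x axis, log scale) in each library, with squares for PBS, circles for TCA, triangles for Tβ-MCA (open for replicate 5) and diamonds for GCA. The monocyte and macrophage sum is 2866 to 6022 CPM in the Tβ-MCA libraries and 7105 to 8173 CPM in the TCA libraries. The granulocyte progenitor sums, of which Mki67 is the largest part, overlap.

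Between the bile acids, 588 of 16761 genes tested differed with an adjusted p under 0.05, which is 3.51%. With Tβ-MCA 372 were higher (2.22%) and 216 were lower (1.29%). Most of these differences were small: the median size was 0.54 on the log2 scale, and 53 of the higher and 36 of the lower genes differed at least 2-fold. No adjusted p was lower than 0.0323. At the study's own thresholds, an unadjusted p under 0.05 and a fold change of 2, 467 genes passed (2.79%), 184 of them higher (1.1%) and 283 lower (1.69%). An unadjusted p under 0.05 alone was reached by 22.2% of genes. Scaling by total library size instead of TMM moved the median log2 fold change of all genes from 0.00435 to 0.048 and gave 585 genes higher and 190 lower at the same adjusted threshold. Without any threshold on p, the 3 Tβ-MCA values lay entirely above the TCA values for 13.3% of genes and entirely below them for 12.1%. In the fit that omitted Tβ-MCA replicate 5, the adjusted count was 2619 of 17131 (1228 higher, 7.17%, and 1391 lower, 8.12%), and 587 of the 588 genes were among them. When any one of the other 5 libraries was left out the adjusted count was 0, with between 2499 and 3410 genes at an unadjusted p under 0.05.

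**Figure D2:**
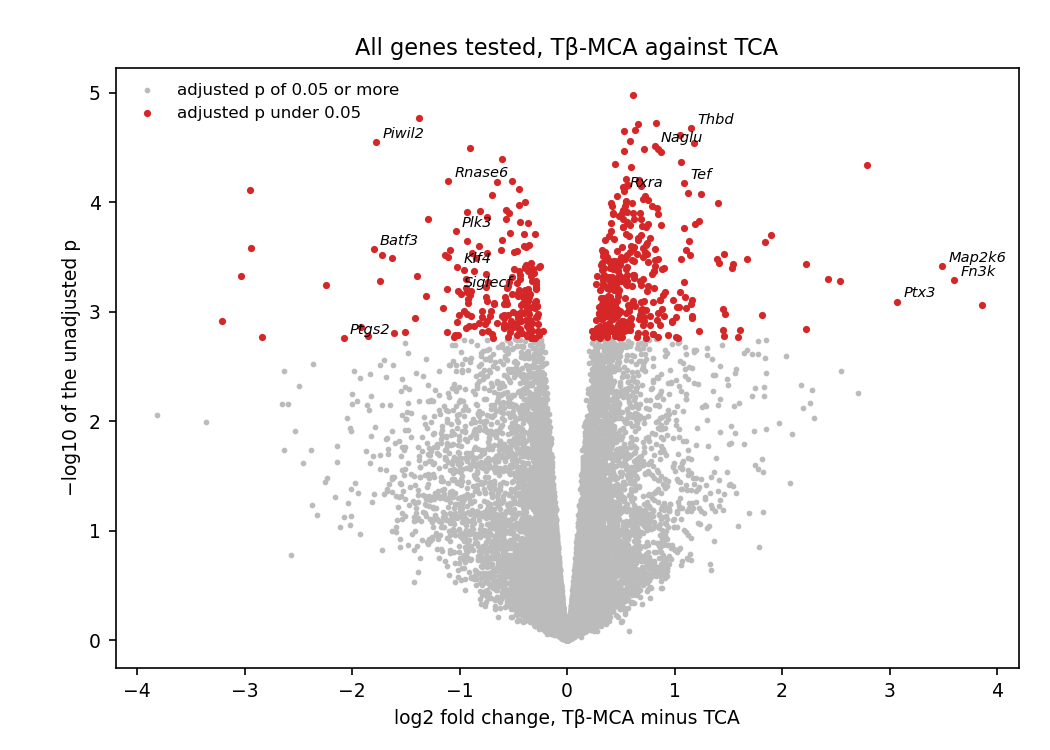
Each point is 1 of the 16761 genes tested, with its log2 fold change between Tβ-MCA and TCA on the x axis and the negative log10 of its unadjusted p on the y axis. The 588 genes with an adjusted p under 0.05 are in red, and most of them lie within 1 log2 unit of zero.

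The leading genes were picked among called, 2-fold genes whose Tβ-MCA and TCA values do not overlap. The lack of overlap in them is therefore part of the choice and not a result. The gene with the lowest p among the leading higher genes was Thbd, which encodes thrombomodulin, the surface receptor that turns thrombin towards protein C activation. Thbd (chr2:148404466-148408188, minus strand, GRCm38) was at 16.2, 13.9 and 9.48 CPM with Tβ-MCA and at 5.55, 5.8 and 6.36 CPM with TCA. The TCA values lay among the PBS values of 5.5 to 6.45 CPM, and the Tβ-MCA level was 2.23-fold higher than that of TCA (log2 fold change 1.16, SE 0.19, adjusted p = 0.0323). Kifc2, a kinesin motor gene, was at 6.01, 5.02 and 4.12 CPM against 2.23, 2.59 and 2.46 CPM (log2 fold change 1.05, SE 0.18, adjusted p = 0.0323). Pecr, a peroxisomal enoyl-CoA reductase of fatty acid metabolism, was at 6.28, 5.32 and 4.6 CPM against 1.67, 2.59 and 2.84 CPM (log2 fold change 1.18, SE 0.20, adjusted p = 0.0323), and both genes were highest in Tβ-MCA replicate 3 and lowest of the 3 in replicate 5. Adi1, a dioxygenase of the methionine salvage pathway, was at 11.5, 12.4 and 7.66 CPM with Tβ-MCA against 4.4, 4.04 and 4.87 CPM with TCA (log2 fold change 1.24, SE 0.23, adjusted p = 0.0323). Cbx8, a Polycomb protein, was at 11, 9.96 and 6.18 CPM against 3.97, 3.26 and 4.39 CPM, and Smyd3, a lysine methyltransferase, at 13.4, 13.1 and 10.3 CPM against 5.09, 6.38 and 5.79 CPM. Their log2 fold changes were 1.23, SE 0.24 and 1.09, SE 0.21 (adjusted p = 0.0323 for both).

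Most of the other leading higher genes were lower in level. Gbp6, an interferon-inducible guanylate-binding protein whose exons overlap Gm43302 on the same strand, was at 3.59, 3.08 and 2.14 CPM against 1.05, 1.11 and 1.14 CPM (log2 fold change 1.41, SE 0.27, adjusted p = 0.0323). Dnase1l3, a secreted nuclease that degrades extracellular chromatin, was at 2.45, 2.65 and 1.18 CPM against 0.62, 0.58 and 0.541 CPM (log2 fold change 1.84, SE 0.39, adjusted p = 0.0346), and replicate 5 was the lowest of the Tβ-MCA libraries. Arhgap22, a GTPase-activating protein, was at 2.6, 2.51 and 1.82 CPM against 0.868, 0.387 and 0.623 CPM, and Rab19, a small GTPase, at 3.71, 3.94 and 2.09 CPM against 1.36, 1.5 and 1.38 CPM. The log2 fold changes were 1.90, SE 0.39 and 1.19, SE 0.24. Card14, a scaffold of NF-kB signalling in epithelia, was at 20.2, 19.2 and 12 CPM against 7.2, 7.83 and 8.45 CPM, but its exons overlap those of Sgsh on the other strand. Since the strand setting of the counting is not stated in the sources used here, the Card14 and Sgsh values cannot be separated with certainty. Lrrc75a differed between the bile acids (log2 fold change 1.13, SE 0.24, adjusted p = 0.0346), but its Tβ-MCA values of 2.27, 2.75 and 2.19 CPM lay within or near the PBS values of 1.51 to 2.44 CPM, and its TCA values of 1.24, 0.87 and 1.19 CPM were the low ones. RP23-303A11.3, which the deposited table lists under a clone-style name, was at 3.02, 3.4 and 1.37 CPM against 0.372, 0.363 and 0.379 CPM (log2 fold change 2.79, SE 0.48, adjusted p = 0.0323). Pde7b and Tef, the other 2 of the 15, are described with their pathways. Larger fold changes were found in genes with few counts under TCA. Fn3k and Rassf6 were singled out after their values were seen. Fn3k, a kinase that removes sugar adducts from proteins, was at 6.31, 5.97 and 2.41 CPM with Tβ-MCA and 0.155, 0.677 and 0.325 CPM with TCA (log2 fold change 3.60, SE 0.72, adjusted p = 0.036), and Rassf6, a Ras-association domain protein, was at 6.37, 8.18 and 3.24 CPM against 0.837, 1.33 and 1.11 CPM (log2 fold change 2.42, SE 0.50, adjusted p = 0.036).

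**Figure D3:**
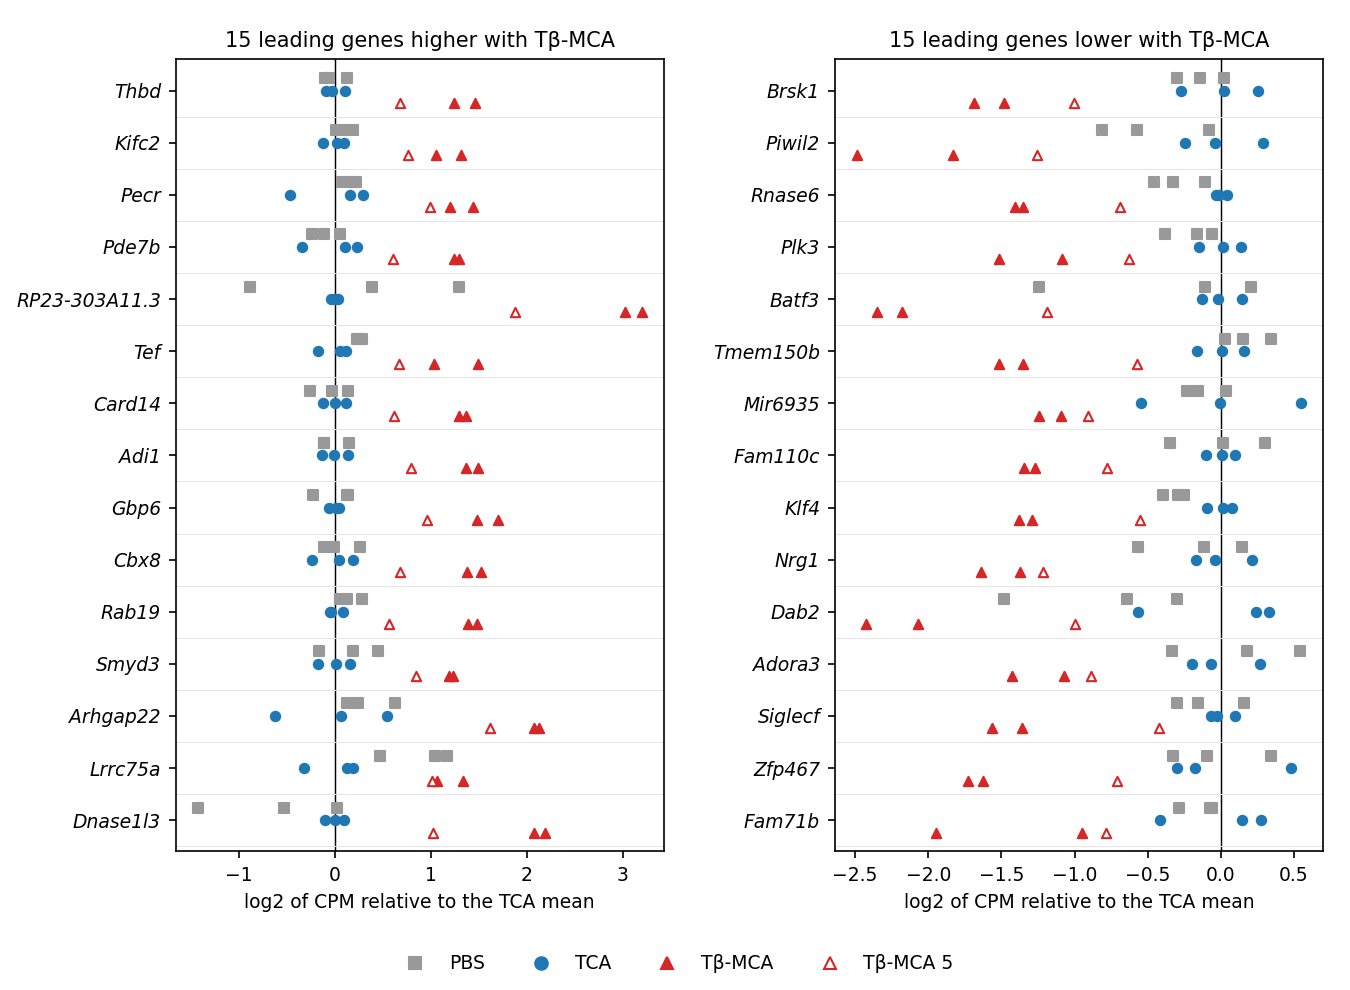
Log2 CPM of the 15 leading higher and the 15 leading lower genes in the PBS (squares), TCA (circles) and Tβ-MCA (triangles) libraries, relative to the mean log2 CPM of the TCA libraries. The open triangle, Tβ-MCA replicate 5, lies between the TCA values and the other Tβ-MCA values in most genes, for example at 9.48 CPM in Thbd, where the others are at 16.2 and 13.9.

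The 15 leading genes lower with Tβ-MCA had adjusted p-values from 0.0323 to 0.0418. Klf4, a Krüppel-like factor active in monocyte differentiation, was at 4.94, 4.64 and 8.24 CPM against 12.7, 11.3 and 12.2 CPM (log2 fold change -1.02, SE 0.22, adjusted p = 0.0346). Batf3, an AP-1 family factor needed for conventional dendritic cells, was at 0.239, 0.27 and 0.535 CPM against 1.12, 1.21 and 1.35 CPM (log2 fold change -1.80, SE 0.38, adjusted p = 0.0346). In both genes replicate 5 was the Tβ-MCA library nearest to the TCA libraries. Plk3, a stress-responsive polo-like kinase, was the most abundant of the 15 at 15.9, 21.3 and 29.3 CPM against 45.8, 49.7 and 40.7 CPM (log2 fold change -1.03, SE 0.19, adjusted p = 0.0343). Rnase6, an antimicrobial ribonuclease of myeloid cells, was at 1.94, 2.03 and 3.21 CPM against 5.06, 5.12 and 5.33 CPM (log2 fold change -1.11, SE 0.20, adjusted p = 0.0323). Dab2, an endocytic adaptor of macrophages, was at 0.359, 0.459 and 0.964 CPM against 1.3, 2.42 and 2.27 CPM, and its PBS values of 0.689 to 1.56 CPM overlapped both groups. Siglecf, a sialic acid-binding receptor best known from eosinophils, was at 1.41, 1.62 and 3.1 CPM against 4.44, 3.96 and 4.09 CPM (log2 fold change -1.02, SE 0.24, adjusted p = 0.0377).

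Adora3, an adenosine receptor, was at 0.718, 0.918 and 1.04 CPM against 2.33, 1.84 and 1.68 CPM (log2 fold change -1.11, SE 0.26, adjusted p = 0.0374), and its exons overlap Tmigd3 on the same strand. Piwil2, a PIWI protein known from the germ line, was at 0.479, 0.756 and 1.12 CPM against 2.26, 2.61 and 3.28 CPM (log2 fold change -1.78, SE 0.30, adjusted p = 0.0323). Nrg1, a ligand of ERBB receptors, was at 0.359, 0.432 and 0.482 CPM against 0.993, 1.09 and 1.3 CPM (log2 fold change -1.40, SE 0.32, adjusted p = 0.036). These 3 genes were below 4 CPM throughout. Brsk1 (-1.37, SE 0.22) and Tmem150b (-1.09, SE 0.22) also fell, but their exons overlap on opposite strands, and Mir6935 (-1.13, SE 0.24) lies inside an exon of the actin gene Actg1, so their counts are uncertain. Zfp467, Fam110c and Fam71b completed the 15, with log2 fold changes between -1.31 and -1.11. For all 15 genes the monocyte and macrophage sum was lower in the same libraries, and its part in their values was not tested.

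The known bile acid receptors could hardly be read in these cells. Nr1h4, the gene of FXR, had 0 counts in all 6 libraries, and Gpbar1, the gene of TGR5, had 0 to 2 counts, so that neither could be tested. With 3 counts as the limit, their levels lay at or under the 0.0725 to 0.0931 CPM that the depth could show. Of 23 listed receptors and transporters of bile acids, 11 were tested and 1 rose (9.09%, against 2.22% of all genes). This was Rxra, the partner of FXR and of other nuclear receptors. Rxra was at 61.1, 63.5 and 52.5 CPM with Tβ-MCA and 40.2, 40.8 and 41.9 CPM with TCA. All Tβ-MCA values were above all TCA values, which spanned less than 2 CPM (log2 fold change 0.53, SE 0.10, adjusted p = 0.0323). S1pr2, a sphingosine phosphate receptor that conjugated bile acids activate, was at 8.05, 9.1 and 7.15 CPM against 7.01, 5.34 and 4.98 CPM and did not pass (log2 fold change 0.49, SE 0.15, adjusted p = 0.0707), although the groups did not overlap. Abcc3, an efflux pump of bile acid conjugates, was at 4.7, 6.32 and 7.31 CPM against 6.82, 10.0 and 8.85 CPM (log2 fold change -0.49, SE 0.19, adjusted p = 0.138). The 13 tested targets of the oxysterol receptor LXR included no call, with 1 higher and 2 lower at an unadjusted p under 0.05 and a median log2 fold change of 0.01, and the LXR gene Nr1h3 was at 1.56, 2.08 and 2.89 CPM against 2.64, 2.88 and 3.11 CPM (95% interval of the log2 fold change -0.85 to 0.06). Of 32 genes of cholesterol and fatty acid synthesis 2 rose, the enzymes Mvd (log2 fold change 0.36, SE 0.09, adjusted p = 0.0399) and Tm7sf2 (log2 fold change 0.66, SE 0.17, adjusted p = 0.0479), the latter overlapping Vps51 on the same strand.

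Several genes of the lysosome were higher with Tβ-MCA. Of 41 hydrolases and membrane proteins tested, 11 rose (26.8%, against 2.22% of all genes) and 1 fell, and the median log2 fold change was 0.22 against 0.00435 over all genes. Those that rose included enzymes that break down heparan sulfate and other glycans (Naglu, Sgsh, Idua, Manba, Neu1, Hexa), the peptidase Tpp1, the calcium channel Mcoln1, and the cholesterol exporters Npc1 and Npc2. Naglu was at 20.4, 19.1 and 16.1 CPM with Tβ-MCA and 11, 10.2 and 10.4 CPM with TCA (log2 fold change 0.81, SE 0.14, adjusted p = 0.0323). Manba was at 24.9, 23.7 and 19.5 CPM against 14.8, 14.8 and 15.3 CPM (log2 fold change 0.60, SE 0.11, adjusted p = 0.0323). Mcoln1 was at 143, 144 and 107 CPM against 89.6, 90.3 and 89.3 CPM (log2 fold change 0.55, SE 0.10, adjusted p = 0.0323). In each of these genes the TCA values lay close together and all Tβ-MCA values were above them, with replicate 5 lowest. Idua was at 51.1, 54.5 and 41.3 CPM against 33.4, 34.1 and 33.1 CPM (log2 fold change 0.55, SE 0.10, adjusted p = 0.0323), with exons that overlap Dgkq and Slc26a1 on the other strand. Sgsh, Neu1, Hexa, Tpp1, Npc1 and Npc2, named because they were called, had log2 fold changes from 0.27 for Hexa to 1.05 for Sgsh. As said above, the Sgsh values cannot be separated with certainty from those of Card14. The member that fell was Ctsl, the protease cathepsin L, at 47.9, 49 and 71.4 CPM against 80.5, 85.7 and 84.4 CPM (log2 fold change -0.57, SE 0.13, adjusted p = 0.0411). The genes of the factors that bind lysosomal promoters, Tfeb and Tfe3, were not called, with 95% intervals of their log2 fold changes of -0.10 to 0.18 and -0.19 to 0.16. Without Tβ-MCA replicate 5 the list had 16 of 41 members higher (against 7.17% of all genes in that fit) and 4 lower, with only the 6 libraries compared it had 4 higher and none lower, and without any one of the other 5 Tβ-MCA and TCA libraries it had none.

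Many lysosomal promoters hold an E-box, CACGTG, inside the element that TFEB and its relatives bind, and circadian activators bind the same hexamer. RefSeq promoter sequences of GRCm38.p6, 250 bases before to 50 bases after the start, were searched for CACGTG, which reads the same on both strands. Of the 41 lysosomal genes 33 had a promoter sequence, and 11 of these (33.3%) held the hexamer, as did 8.09% of all 27025 genes with such a sequence and 11.3% of the 10369 of them that were tested here. Those that held it were 3 of the 9 genes that rose (Naglu, Mcoln1 and Sgsh), Ctsl, which fell, and 7 of the 23 that were not called (30.4%). The windows of these 4 genes are shown 5′ to 3′ on the strand of the gene, with the hexamer in capitals, so that the sites of genes that rose can be read beside that of the gene that fell. Each of the first 3 ends 1 base before the start, and that of Ctsl ends 191 bases before it.
Naglu (chr11:101070004-101070093, plus strand): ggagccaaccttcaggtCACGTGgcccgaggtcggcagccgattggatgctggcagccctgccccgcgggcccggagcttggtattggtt
Mcoln1 (chr8:3500429-3500518, plus strand): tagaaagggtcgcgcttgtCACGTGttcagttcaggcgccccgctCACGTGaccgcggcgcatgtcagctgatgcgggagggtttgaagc
Sgsh (chr11:119355511-119355600, minus strand): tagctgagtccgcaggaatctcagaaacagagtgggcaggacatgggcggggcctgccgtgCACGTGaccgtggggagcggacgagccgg
Ctsl (chr13:64370711-64370770, minus strand): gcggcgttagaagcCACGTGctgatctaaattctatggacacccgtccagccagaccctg
Mcoln1 holds the hexamer at 2 places. A match is a string of letters and does not show that a factor binds there in neutrophils.

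Autophagy genes, which deliver cargo to the lysosome, had 3 of 28 members higher (10.7%, against 2.22% of all genes) and none lower. At an unadjusted p under 0.05, 7 were higher and 2 lower, and the median was 0.06. The 3 called genes were Atg16l2, Atg7 and Atg5, parts of the machinery that attaches LC3 to membranes. Atg16l2 was at 122, 108 and 87.1 CPM against 76.1, 71 and 70.1 CPM (log2 fold change 0.55, SE 0.10, adjusted p = 0.0323), Atg7 at 143, 142 and 123 CPM against 114, 103 and 106 CPM (log2 fold change 0.33, SE 0.07, adjusted p = 0.0346), and neither overlapped between the groups. Gabarapl1, an LC3 relative, was at 22.6, 19.8 and 16.5 CPM against 14.2, 15.3 and 14.4 CPM and did not pass (log2 fold change 0.42, SE 0.12, adjusted p = 0.0601).

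Of 19 circadian clock genes tested, 5 rose (26.3%, against 2.22% of all genes) and none fell in edgeR's fit of all libraries, with 2 lower at an unadjusted p under 0.05 and a median of 0.27. With only the 6 libraries compared 3 members rose, and without any one of the 5 libraries of these groups other than Tβ-MCA replicate 5 none was called. The 5 that rose over all libraries were output and feedback genes and a kinase of the clock. Tef, a PAR-domain transcription factor that follows the clock, was at 10.4, 7.56 and 5.89 CPM with Tβ-MCA and 3.29, 4.01 and 3.84 CPM with TCA (log2 fold change 1.09, SE 0.20, adjusted p = 0.0323). Bhlhe40 and Bhlhe41, repressors of the CLOCK and BMAL1 activators, were at 134, 134 and 97.2 CPM against 74.9, 73 and 70.7 CPM (log2 fold change 0.74, SE 0.14, adjusted p = 0.0346) and at 8.14, 9.05 and 6 CPM against 1.49, 3.6 and 2.84 CPM (log2 fold change 1.53, SE 0.32, adjusted p = 0.0346). Groups did not overlap in any of these genes, and replicate 5 was again the lowest of the Tβ-MCA libraries. Csnk1d, the kinase that phosphorylates PER proteins, was at 114, 111 and 92.1 CPM against 71.7, 74.8 and 80.4 CPM (log2 fold change 0.48, SE 0.10, adjusted p = 0.0323), and Per3, named because it was called, at 11.3, 9.8 and 7.49 CPM against 6.58, 6.12 and 5.44 CPM (log2 fold change 0.66, SE 0.17, adjusted p = 0.0492). The core activator genes did not pass: the 95% intervals were -0.31 to 0.12 for Clock and -0.45 to 0.40 for Arntl, and that of the repressor Per2 was -0.41 to 0.25. Tef, Bhlhe40, Bhlhe41 and Csnk1d each overlap a predicted or antisense transcript on the other strand. Of 17 clock genes with a promoter sequence, 5 held the hexamer (29.4%, against 11.3% of genes tested). They were 2 of the 3 that rose (Tef and Bhlhe41) and 3 of the 14 not called (Per1, Cry1 and Ciart). Windows of 60 bases are shown for Tef and Bhlhe41 because these were the clock genes with the largest fold changes.
Tef (chr15:81802523-81802582, plus strand, 150 to 91 bases before the start): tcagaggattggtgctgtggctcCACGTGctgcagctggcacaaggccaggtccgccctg
Bhlhe41 (chr6:145865541-145865600, minus strand, 180 to 121 bases before the start): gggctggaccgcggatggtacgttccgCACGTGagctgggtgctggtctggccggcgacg

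**Figure D4:**
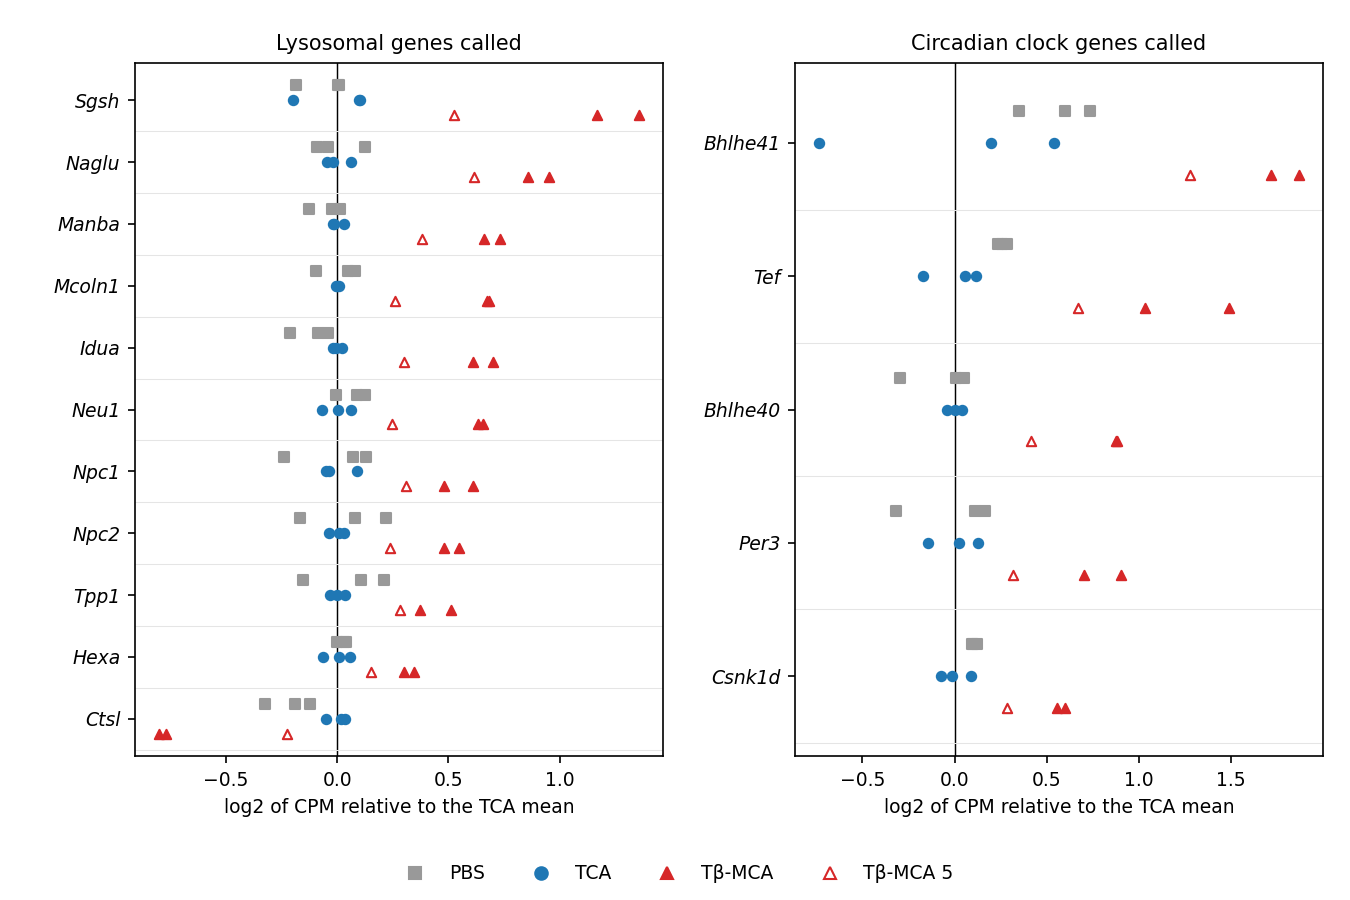
Log2 CPM of 11 of the 12 lysosomal and of the 5 clock genes with an adjusted p under 0.05, relative to the mean log2 CPM of the TCA libraries, for PBS (squares), TCA (circles) and Tβ-MCA (triangles, open for replicate 5). Of the lysosomal genes plotted, only Ctsl lies below the TCA values, and in each higher gene plotted the open triangle is the lowest of the Tβ-MCA values.

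Receptors that act through cAMP were examined because TGR5 and adenosine receptors both do so. Of 36 cAMP genes 4 rose (11.1%, against 2.22% of all genes) and 1 fell (2.78%, against 1.29%). At an unadjusted p under 0.05, 6 were higher and 4 lower, and the median was -0.03. Adora2a, an adenosine receptor that raises cAMP and restrains neutrophils, was at 4.37, 3.73 and 3.77 CPM with Tβ-MCA and 1.24, 2.42 and 1.98 CPM with TCA (log2 fold change 1.06, SE 0.23, adjusted p = 0.0346). Its TCA values lay below the PBS values of 2.75 to 3.3 CPM as well. Pde7b, a phosphodiesterase that degrades cAMP, was at 9.84, 10.2 and 6.32 CPM against 4.87, 4.47 and 3.28 CPM (log2 fold change 1.06, SE 0.19, adjusted p = 0.0323). Prkacb, a catalytic subunit of protein kinase A, was at 59, 51.1 and 46 CPM against 34.2, 39.9 and 38.4 CPM (log2 fold change 0.47, SE 0.10, adjusted p = 0.0346), and Adcy9, an adenylyl cyclase, had a log2 fold change of 0.45. Ptger4, the EP4 receptor of prostaglandin E2, which also raises cAMP, fell and was at 9.33, 8.51 and 9.31 CPM against 12.1, 11.5 and 11.7 CPM (log2 fold change -0.38, SE 0.09, adjusted p = 0.0393). Its exons overlap Ttc33 on the other strand.

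The p38 pathway, in which MAP3 kinases activate MKK3 and MKK6 and these activate p38, held genes that moved in both directions. Of 36 tested, 4 were higher (11.1%, against 2.22% of all genes) and 3 lower (8.33%, against 1.29% of all genes). Map2k6, the gene of MKK6, was at 7.99, 6.4 and 2.92 CPM with Tβ-MCA and 0.558, 0.338 and 0.65 CPM with TCA. Its lowest Tβ-MCA value, that of replicate 5, was above every TCA and PBS value (log2 fold change 3.49, SE 0.67, adjusted p = 0.0346). Map3k4, a kinase above MKK6, was at 54.4, 49.9 and 37.9 CPM against 28.6, 29.4 and 32.1 CPM (log2 fold change 0.66, SE 0.13, adjusted p = 0.0346). Mapk14, the gene of p38α, was at 130.2, 118 and 121 CPM against 121, 111 and 117 CPM and did not pass, and its 95% interval of -0.05 to 0.22 on the log2 scale leaves out a 2-fold difference. Mapk13, the gene of p38δ, fell and was at 37.9, 43.9 and 57.7 CPM against 64, 67.4 and 67.4 CPM (log2 fold change -0.51, SE 0.12, adjusted p = 0.0388). Dusp1, the phosphatase that switches p38 and JNK off, was at 274, 285 and 399.9 CPM against 601, 512 and 498 CPM (log2 fold change -0.75, SE 0.14, adjusted p = 0.0323), a level below all PBS values of 463 to 566 CPM. Mknk2 and Ddit3 rose (log2 fold changes 0.29 and 0.45) and Mef2a fell (-0.28). Of the 34 genes of the ERK pathway and immediate early response none rose and 3 fell (8.82%, against 1.29% of all genes). At an unadjusted p under 0.05, 2 were higher and 11 lower, and the median was -0.11. The 3 that fell were the rapidly induced genes Ier2, at 43.1, 48.6 and 48.4 CPM against 81.6, 67.8 and 64.4 CPM (log2 fold change -0.61, SE 0.11, adjusted p = 0.0323), Jund (log2 fold change -0.42, SE 0.10, adjusted p = 0.0412) and Myc (log2 fold change -0.91, SE 0.23, adjusted p = 0.0469). Fosl2 was at 97.7, 94.4 and 141 CPM against 160.2, 147 and 153 CPM and did not pass (log2 fold change -0.47, SE 0.12, adjusted p = 0.0524).

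Genes listed here as immunosuppressive effectors were called in both directions, more often lower. Of 29 tested, 1 rose (3.45%, against 2.22% of all genes) and 4 fell (13.8%, against 1.29%), with a median of -0.22. At an unadjusted p under 0.05, 2 were higher and 13 lower. Pdcd1lg2, the gene of the PD-1 ligand PD-L2, was at 5.98, 6.02 and 5.17 CPM with Tβ-MCA and 3.19, 3.38 and 3.63 CPM with TCA (log2 fold change 0.75, SE 0.16, adjusted p = 0.0346). Cd274, the gene of PD-L1, was at 70.1, 92.3 and 65.7 CPM against 46.7, 56.9 and 58.2 CPM, which did not overlap but did not pass (log2 fold change 0.50, SE 0.24, adjusted p = 0.266). Ptgs2, the gene of cyclooxygenase 2, fell and was at 0.12, 0.216 and 0.375 CPM against 0.744, 1.33 and 0.975 CPM (log2 fold change -2.08, SE 0.55, adjusted p = 0.0497), close to the limit of detection with Tβ-MCA and with PBS values of 0.177 to 1.05 CPM that overlapped both groups. Cd38, an enzyme that consumes NAD, was at 5.86, 7.37 and 10.3 CPM against 10.3, 13.3 and 14.8 CPM (log2 fold change -0.70, SE 0.17, adjusted p = 0.0427). The other genes that fell were S100a8, an alarmin subunit, and Mmp8, a collagenase of the granules, with log2 fold changes of -0.37 and -0.37. Both are also counted above among the neutrophil markers that fell, so these calls do not bear on T cell restraint alone. Il10 was at 11.2, 11.3 and 12.4 CPM against 14.5, 13.1 and 13.1 CPM (log2 fold change -0.22, SE 0.09, adjusted p = 0.155), and Nos2 at 1.44, 1.62 and 1.82 CPM against 1.86, 1.52 and 2.03 CPM, with a 95% interval of -0.73 to 0.43. Arg1, the gene of arginase 1, had 1 to 3 counts with Tβ-MCA and 3 to 18 with TCA and was too low to be tested.

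Inflammatory cytokines and chemokines included no called gene among 23 tested, in edgeR's fit of all libraries, with 2 higher and 9 lower at an unadjusted p under 0.05. Without Tβ-MCA replicate 5, 8 of them were lower with an adjusted p under 0.05, in a fit in which 8.12% of all genes were. Their median of -0.50 was among the lowest of the 29 pathway lists. Ccl9, a chemokine of myeloid cells, was at 7.36, 8.1 and 33.2 CPM against 41.3, 54.7 and 51.8 CPM (log2 fold change -1.60, SE 0.53, adjusted p = 0.123), and Cxcl2, a ligand of the neutrophil receptor CXCR2, at 9.12, 20.2 and 34.6 CPM against 38.9, 61.2 and 55.9 CPM (log2 fold change -1.29, SE 0.44, adjusted p = 0.13). In both, Tβ-MCA replicate 5 was near the lowest TCA value, and without it Ccl9 was at -2.67 on the log2 scale with an adjusted p of 3.35e-05. Ccl3 was at 63.9, 65.5 and 79.6 CPM against 93.6, 87.8 and 86.1 CPM (log2 fold change -0.36, SE 0.10, adjusted p = 0.0601). Cxcl10 was under 0.6 CPM in all 6 libraries. NF-kB subunits and inhibitors (21 tested) and toll-like receptors with their adaptors (21 tested) also held no called gene in this fit, with 7 in each at an unadjusted p under 0.05, and in the fit without Tβ-MCA replicate 5 they held 5 and 4, against 15.3% of all genes. Among them Tlr5, the flagellin receptor, was at 1.41, 1.35 and 3.1 CPM against 3.47, 3.77 and 4.36 CPM (log2 fold change -0.98, SE 0.28, adjusted p = 0.0594).

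**Figure D5:**
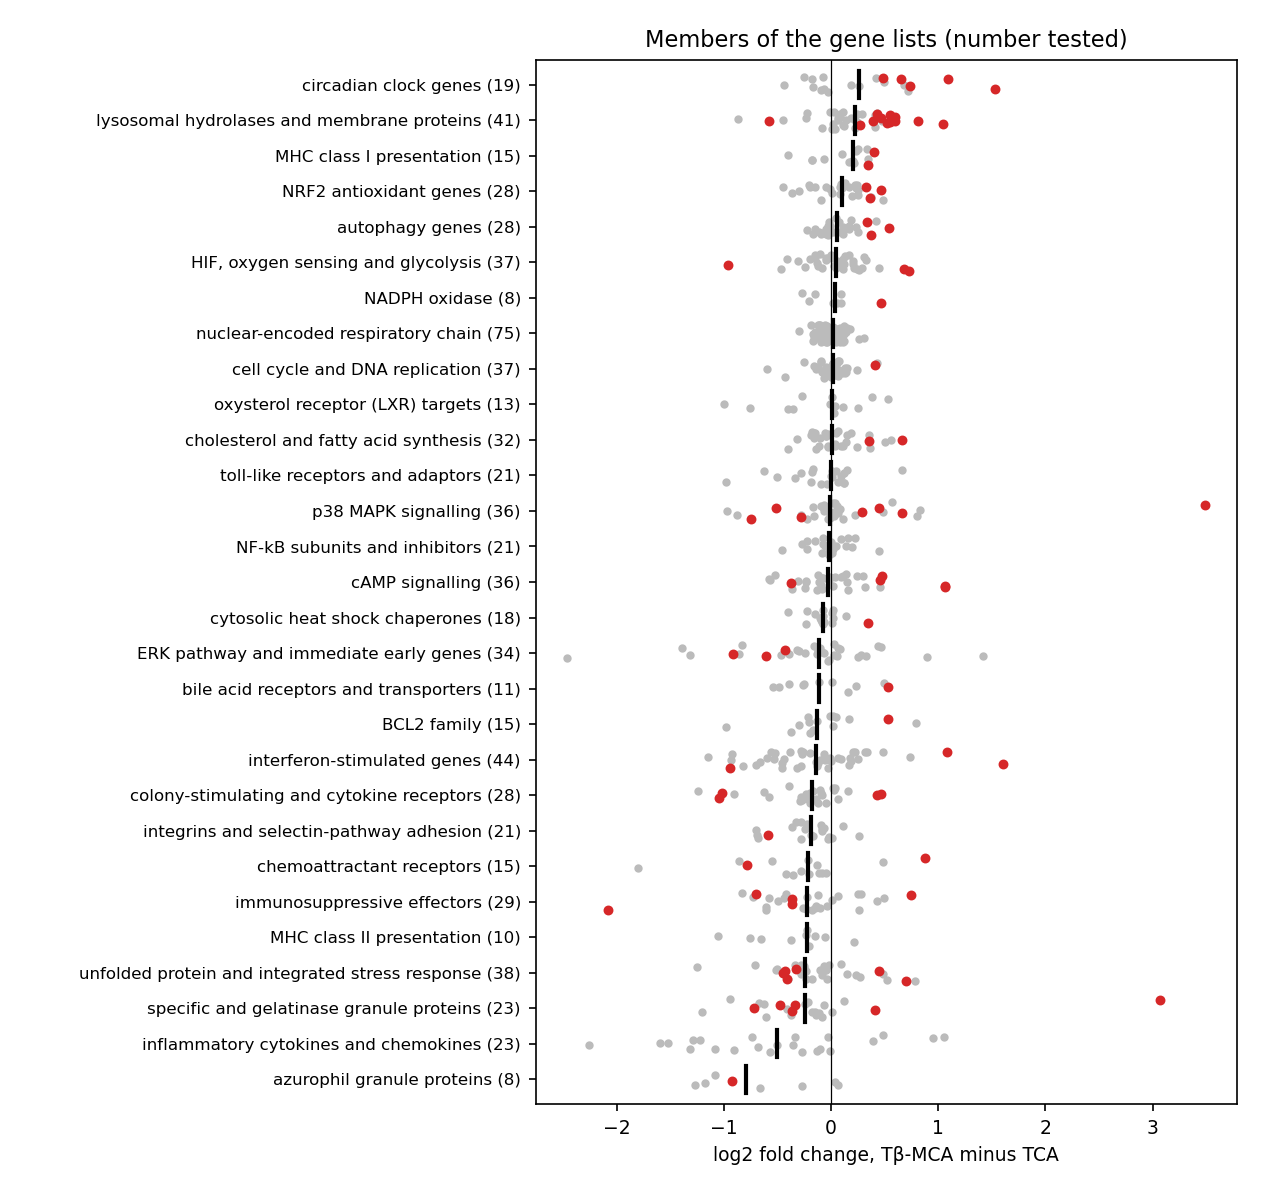
Log2 fold changes between Tβ-MCA and TCA of the tested members of 29 pathway lists, ordered by their median (black bar), with the number tested in brackets and genes with an adjusted p under 0.05 in red. Clock and lysosomal genes have the highest medians (0.27 and 0.22) and cytokines and azurophil granule proteins the lowest (-0.50 and -0.80).

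Granule proteins, which neutrophils make in sequence while they mature, were called lower more often than higher. Of 23 specific and gelatinase granule genes 4 fell (17.4%, against 1.29% of all genes) and 2 rose (8.7%, against 2.22%), with a median of -0.24. Lyz2, the gene of lysozyme, was at 2185, 2103 and 3294 CPM against 3934, 4199.9 and 4362 CPM (log2 fold change -0.72, SE 0.17, adjusted p = 0.0429), Chil3 at 3251, 2997 and 3728 CPM against 5034, 4348 and 4524 CPM (log2 fold change -0.48, SE 0.12, adjusted p = 0.0462), and Mmp8 at 3201, 3133 and 3498 CPM against 4555, 3899 and 4231 CPM (log2 fold change -0.37, SE 0.09, adjusted p = 0.0464). None of these overlapped. The fourth was Hp, haptoglobin (-0.33). The genes that rose were Chil1, a chitinase-like protein, at 738, 749 and 588 CPM against 563, 499 and 500.3 CPM (log2 fold change 0.41, SE 0.09, adjusted p = 0.0346), and Ptx3, a soluble pattern recognition molecule, at 1.38, 0.864 and 0.562 CPM against 0.062, 0.145 and 0.108 CPM (log2 fold change 3.07, SE 0.73, adjusted p = 0.0408). One PBS library, at 0.602 CPM, was within the range of Tβ-MCA in Ptx3. Azurophil granule genes had the lowest median, -0.80, with 1 of 8 called lower, Ctsc, the protease that activates the granule serine proteases, at 11.6, 9.99 and 19.5 CPM against 25.3, 25.1 and 27.9 CPM (log2 fold change -0.93, SE 0.20, adjusted p = 0.038). Mpo, myeloperoxidase, was at 32.3, 44.5 and 154 CPM against 166, 178 and 179.7 CPM (log2 fold change -1.18, SE 0.51, adjusted p = 0.226) and Ctsg at 4.13, 5.59 and 12.7 CPM against 15.4, 14.5 and 17.5 CPM (log2 fold change -1.08, SE 0.35, adjusted p = 0.114), so that in both the first 2 Tβ-MCA libraries were far below the TCA libraries and replicate 5 was just below them. Without replicate 5 the log2 fold change was -2.18 for Mpo and -1.70 for Ctsg, and 5 of the 8 were lower with an adjusted p under 0.05, against 8.12% of all genes. The granulocyte progenitor markers, which include some of these genes, summed to 2819 to 3080 CPM with Tβ-MCA and 2843 to 3172 CPM with TCA. Mki67 alone supplied 2082, 1884 and 1811 CPM of the Tβ-MCA sums and 1998, 1925 and 1787 CPM of the TCA sums. These sums therefore say little on the granule genes among the 10 markers. Of the 10, 7 had a lower mean with Tβ-MCA and 3 had a positive log2 fold change, with a median of -0.24. Monocytes also express Lyz2, and the part of their lower marker sum in the granule genes was not tested.

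Lists of oxidase, receptor and survival genes each held 1 to 4 called genes, where 2.22% of all genes rose and 1.29% fell. Of 8 NADPH oxidase genes 1 rose (12.5%), Hvcn1, the proton channel that sustains the oxidative burst, at 267, 238 and 191 CPM against 183, 158 and 164 CPM (log2 fold change 0.46, SE 0.11, adjusted p = 0.0421). The oxidase subunit Cybb was at 924, 923 and 1034 CPM against 1102, 1038 and 1059.6 CPM and did not pass (95% interval -0.32 to 0.02). Among 15 chemoattractant receptors 1 rose and 1 fell (6.67% each). At an unadjusted p under 0.05, 1 was higher and 6 were lower, and the median was -0.22. Hcar2, the niacin and butyrate receptor, was at 21.4, 23.1 and 14.2 CPM against 12.7, 9.64 and 9.58 CPM (log2 fold change 0.88, SE 0.17, adjusted p = 0.0323), and Ccr1, a receptor of CCL3, at 34.4, 46.2 and 64.4 CPM against 86.6, 78.9 and 84.8 CPM (log2 fold change -0.79, SE 0.18, adjusted p = 0.0434). Cxcr2 was at 281, 349 and 379 CPM against 408, 421 and 464 CPM and missed the threshold (log2 fold change -0.36, SE 0.10, adjusted p = 0.0543). Of 21 adhesion genes 1 fell (4.76%), the integrin Itgb7 (log2 fold change -0.59, SE 0.15, adjusted p = 0.0471). In that list 1 gene was higher and 7 were lower at an unadjusted p under 0.05, with a median of -0.19. Of 28 cytokine receptors 2 rose (7.14%), Tgfbr2 (log2 fold change 0.43, SE 0.10, adjusted p = 0.0346) and Il10rb (log2 fold change 0.47, SE 0.12, adjusted p = 0.0486), and 2 fell (7.14%), Lifr, at 7.99, 9.07 and 18.2 CPM against 21.9, 25.1 and 25.6 CPM (log2 fold change -1.04, SE 0.25, adjusted p = 0.0489), and Il13ra1 (log2 fold change -1.02, SE 0.25, adjusted p = 0.0452). Cytokine receptors with an unadjusted p under 0.05 were 2 higher and 14 lower, and the list median was -0.18. Among 15 BCL2 family genes 1 rose (6.67%), Bcl2l11, which encodes the death-promoting protein BIM, at 48.6, 46.5 and 40.9 CPM against 31.3, 33 and 29.8 CPM (log2 fold change 0.53, SE 0.09, adjusted p = 0.0323). Mcl1, the survival factor of neutrophils, was at 486, 549 and 574 CPM against 589, 632 and 644 CPM (log2 fold change -0.21, SE 0.07, adjusted p = 0.0964), and Pmaip1, the gene of NOXA, at 24.9, 22.8 and 44.6 CPM against 67, 60.5 and 55.4 CPM (log2 fold change -0.98, SE 0.24, adjusted p = 0.0539).

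Interferon-stimulated genes differed among themselves. Of 44 tested, 2 rose (4.55%, against 2.22% of all genes) and 1 fell (2.27%, against 1.29%), with a median of -0.14. Guanylate-binding proteins, GTPases that attack vacuoles of pathogens, rose: Gbp5 was at 10.9, 10.6 and 4.92 CPM against 2.2, 3.12 and 3.3 CPM (log2 fold change 1.61, SE 0.38, adjusted p = 0.0476) and Gbp2 at 14.1, 11.5 and 7.92 CPM against 5.46, 4.64 and 5.69 CPM (log2 fold change 1.09, SE 0.24, adjusted p = 0.0361). Gbp6, described above, was not on this list. Gbp4, singled out after its value was seen, had a log2 fold change of -0.82 and did not pass. Ifi205, a DNA sensor of the interferon-inducible p200 family, fell and was at 1.91, 1.51 and 2.76 CPM against 4.28, 3.72 and 3.9 CPM (log2 fold change -0.94, SE 0.24, adjusted p = 0.0474). Of 15 genes of MHC class I presentation 2 rose (13.3%, against 2.22% of all genes), with a median of 0.21. These were Psmb9, a subunit of the immunoproteasome, at 39.4, 37.6 and 32 CPM against 28.5, 26.7 and 27.5 CPM (log2 fold change 0.40, SE 0.09, adjusted p = 0.036), and the class Ib gene H2-T23, at 215, 217 and 177 CPM against 167, 158 and 154 CPM (log2 fold change 0.35, SE 0.09, adjusted p = 0.0471). Reads of H2 genes may be shared with near-identical copies. Without Tβ-MCA replicate 5, 9 of the 15 were higher with an adjusted p under 0.05, against 7.17% of all genes. Of 10 MHC class II genes none was called, with 2 lower at an unadjusted p under 0.05, and Cd74, the invariant chain, was at 4.61, 7.67 and 11.6 CPM against 12.3, 13 and 15.2 CPM (log2 fold change -0.75, SE 0.24, adjusted p = 0.1).

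Stress genes were called in both directions. Of 38 genes of the unfolded protein and integrated stress response, 4 fell (10.5%, against 1.29% of all genes) and 2 rose (5.26%, against 2.22%), with a median of -0.24. Those that fell were the endoplasmic reticulum chaperones and foldases Manf (log2 fold change -0.44, SE 0.10, adjusted p = 0.0346), Hsp90b1 (-0.43) and Pdia4 (-0.32) and the transcription factor gene Xbp1, at 117, 101 and 129 CPM against 165, 153 and 143 CPM (log2 fold change -0.41, SE 0.10, adjusted p = 0.0412). The genes that rose were Ddit3, the gene of CHOP, at 116, 141 and 108 CPM against 95.8, 87 and 84.4 CPM (log2 fold change 0.45, SE 0.11, adjusted p = 0.0411), and Phgdh, the first enzyme of serine synthesis, at 16.9, 19.2 and 13.6 CPM against 10.6, 9.43 and 10.6 CPM (log2 fold change 0.70, SE 0.16, adjusted p = 0.036). In this list 7 genes were higher and 17 lower at an unadjusted p under 0.05. Antioxidant genes of NRF2 had 3 of 28 higher (10.7%, against 2.22% of all genes), Keap1 (log2 fold change 0.33, SE 0.07, adjusted p = 0.0346), Cat (log2 fold change 0.36, SE 0.09, adjusted p = 0.0427) and Ftl1 (log2 fold change 0.47, SE 0.11, adjusted p = 0.0429), of which Ftl1 has near-identical copies. At an unadjusted p under 0.05, 9 of the 28 were higher and 2 lower. Of 37 genes of oxygen sensing and glycolysis 2 rose (5.41%, against 2.22% of all genes) and 1 fell (2.7%, against 1.29%). Pfkl, the liver-type phosphofructokinase, at 221, 207 and 152 CPM against 133, 114 and 113 CPM (log2 fold change 0.68, SE 0.13, adjusted p = 0.0346), and Pdk1 (log2 fold change 0.73, SE 0.19, adjusted p = 0.0479) rose, and Hif3a fell (log2 fold change -0.96, SE 0.24, adjusted p = 0.0427). Fkbp4 was the single called member of 18 heat shock chaperone genes (5.56%), and E2f1 that of 37 cell cycle genes (2.7%), with log2 fold changes of 0.35 and 0.41. The share of cell cycle genes was near the 2.22% of all genes that rose. The 75 nuclear-encoded respiratory chain genes held no call, with 2 at an unadjusted p under 0.05 and a median of 0.02, and without Tβ-MCA replicate 5 they held 1.

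The remaining markers of other cells were examined gene by gene. All 16 tested monocyte and macrophage markers had a negative log2 fold change, with a median of -0.80, but Lyz2 alone passed. Ccr2, the receptor that brings monocytes out of the marrow, was at 2.03, 2.7 and 29.2 CPM with Tβ-MCA and 44.9, 46.2 and 46.3 CPM with TCA (log2 fold change -2.01, SE 0.83, adjusted p = 0.204). Replicate 5 lay between the other Tβ-MCA libraries and the TCA libraries, and the gene did not pass, while without it the log2 fold change was -4.27 with an adjusted p of 3.93e-05. Ly6c2 was at 40.7, 50.4 and 82.6 CPM against 92.3, 94.1 and 99.5 CPM (log2 fold change -0.72, SE 0.22, adjusted p = 0.0945), and Csf1r, the receptor of the macrophage growth factor, at 146, 178 and 235 CPM against 173, 253 and 256 CPM (log2 fold change -0.29, SE 0.21, adjusted p = 0.467). Without Tβ-MCA replicate 5, 11 of the 16 were lower with an adjusted p under 0.05, in a fit in which 8.12% of all genes were. All 9 eosinophil markers had a negative log2 fold change, with Siglecf called and a median of -0.998. The sums of dendritic cell (24.8 to 34.4 against 38.3 to 48.7 CPM), basophil and mast cell (142 to 191 against 209 to 282 CPM) and plasma cell markers (104 to 135 against 148 to 170 CPM) were also lower without overlap, each with the exact permutation p of 0.1. In these lists 1 gene was called, Xbp1 of the plasma cells. It supplied most of the plasma cell sums, at 117, 101 and 129 CPM with Tβ-MCA and 165, 153 and 143 CPM with TCA. Hdc was the largest part of the basophil and mast cell sums, at 73.8, 92.4 and 135 CPM against 190, 151 and 172 CPM. Flt3 was the largest part of the dendritic cell sums, at 16.8, 12.3 and 20.6 CPM against 32.2, 25.5 and 24.4 CPM. Of the dendritic cell markers tested, 2 of 8 had all Tβ-MCA values below the TCA values, as 12.1% of all genes did. The same held for 3 of 9 basophil and mast cell and 1 of 4 plasma cell markers. Their other tested markers overlapped between the groups, for example Ms4a2 at 22.4, 13.2 and 11.9 CPM against 23.3, 14.7 and 13.5 CPM. Sums without Xbp1, Hdc and Flt3 were not tested, so the sums say little on these cell types. Sums of B cell, T and NK cell, erythroid, platelet and stromal markers overlapped between the groups, and no gene of them was called in edgeR's test. At an unadjusted p under 0.05, 2 B cell markers were lower, 1 of the T and NK cells was lower and 1 higher, and 1 erythroid marker was higher.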

How the data were processed

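RNA-seq of 12 mouse neutrophil samples was used. Per the submitters' processing notes, the authors used Trimmomatic 0.36 for trimming, STAR 2.5.3a for alignment to GRCm38 and featureCounts of Subread 1.5.1 for counting. The deposited table holds raw counts of 29737 genes, without normalization, and a second table holds RPKM values that the authors calculated from them. Of the gene names 26 had been changed to dates and 2 occurred on more than 1 line. The strand setting is not given in the sources used here, and counts are of reads, not of unique molecules, so limits of detection cover counting error only.

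Counts were tested in R 4.3.3 with edgeR 4.0.16 (TMM, filterByExpr by group, robust glmQLFit and glmQLFTest over all 12 samples, Benjamini-Hochberg adjustment over 16761 genes), a call being an adjusted p under 0.05. Intervals are 95% intervals of this fit. The script was tested on simulated data. Replicates were distinct libraries, differing by a chi-square of at least 4.79 per gene. The alternatives used DESeq2 1.42.0, limma 3.58.1 on log2(RPKM + 1) for genes averaging 0.5 RPKM or more, other scalings, filters and sample sets, and replicate number as a block. Fits without GCA replicate 4, without the GCA samples, or without both Tβ-MCA replicate 5 and GCA replicate 4 were added after the data were seen.

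The genes compared, the 41 gene lists and the tests were chosen with earlier results of these data known, and no test was made on a list except the exact permutation test of each marker list's summed CPM. Genes named are up to 15 higher and 15 lower with the lowest p among called, 2-fold, non-overlapping genes of at least 1 CPM (41 and 23 passed; Gm, Rik and -ps names left out), up to 4 members of each list with the lowest p, and 16 further genes of bile acid, MAPK and immune function. Others are said to be chosen after their values were seen, or because they were called. Gene positions are those of the deposited table; those of 191 of 191 named genes found in GENCODE vM21 overlapped the gene of that name. One called lysosomal gene is counted but not reported here by name.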

Additional observations from a re-analysis of the deposited data

How the results depend on the processing

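The count of 588 genes with an adjusted p under 0.05 moved with the samples, the filter and the tool. It was 89 with a 2-fold change required as well, 72 with only the 6 samples compared (66 of them among the 588), 1556 with DESeq2, 2077 without a filter on low counts and 0 with limma on log2(RPKM + 1), where 3364 genes had an unadjusted p under 0.05. It stayed within 1.5 times with total library size, RLE normalization, at least 10 counts in every sample, no robust estimation, and without GCA replicate 4 or all GCA samples. At the study's thresholds the count of 467 became 808 without a filter, 236 with at least 10 counts in every sample and 94 with limma on log2(RPKM + 1). Fits that left out 1 library gave 0 to 2619 genes with an adjusted p under 0.05 and 303 to 934 at the study's thresholds, both highest without Tβ-MCA replicate 5. The cause was not tested. With Tβ-MCA replicate 5 and GCA replicate 4 both left out the counts were 2619 and 924. Each of the 90 named genes that were called lost the call without TCA replicate 3, 4 or 5 or Tβ-MCA replicate 3 or 4, kept it without Tβ-MCA replicate 5, and changed direction in none of these fits. With only the 6 samples compared 64 of the 90 lost it. Of the 102 named genes that were not called, 50 gained a call without Tβ-MCA replicate 5, 50 with the replicate block over all 12 samples, 54 without a filter and 40 with DESeq2. Without Tβ-MCA replicate 5 the fold change of 11 named genes, none of them called, moved by more than 1.5 times, 10 of them farther from zero.

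The replicate numbers 3, 4 and 5 occur with both bile acids. Same-numbered samples correlated in their deviations from the group means with r of 0.262, 0.0805 and 0.106. Other pairs with a replicate 3 had r of -0.126 to -0.196, while Tβ-MCA replicate 4 correlated slightly better with TCA replicate 5 (0.101). Ms4a2, picked after its values were seen, was at 22.5, 23.3, 22.4 and 22.9 CPM in replicate 3 of PBS, TCA, Tβ-MCA and GCA. It was at 11.3 to 14.7 CPM in all other libraries, and Kit of the same list did not show this. Number 3 thus went with the values of some genes, but 4 and 5 were not told apart. The main fit did not pair the samples, and what the numbers stand for was not tested. In fits that took the replicate number as a block, the count was 2322 over all 12 samples and 1413 over the 6 samples, and 530 and 408 at the study's thresholds.

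Of the named genes that were not called, 7 changed direction in some fits. Over the fits that left out libraries, the log2 fold changes ranged from -0.19 to 0.15 for Cxcl10, from -0.077 to 0.058 for Gp1bb (a platelet marker), from -0.77 to 0.055 for Fcer1a, from -0.32 to 0.19 for Pdgfrb, from -0.66 to 0.0051 for Pf4, from -0.73 to 0.21 for Hba-a1 and from -0.11 to 1.75 for Col1a2. With both Tβ-MCA replicate 5 and GCA replicate 4 left out Col1a2 was at -0.114. The gene Cxcl10 was at 0.012 with the replicate block over all samples and at 0.0301 with total library size. Gp1bb was at 0.031 with total library size and at 0.0281 with limma. In the Tβ-MCA and TCA libraries these 7 genes were below 4 CPM, except Gp1bb, and the cause was not tested.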

Other observations

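In some of the genes described above, GCA replicate 4 lay nearer to the Tβ-MCA libraries than the other GCA libraries did. In the order of GCA replicates 3, 4 and 5, Map2k6 was at 0.676, 3.44 and 0.674 CPM, Fn3k at 0.394, 2.41 and 0.571 CPM and Rassf6 at 1.27, 4.33 and 1.71 CPM. In each of these genes GCA replicate 4 was above all PBS and TCA libraries, as was Tβ-MCA replicate 5, and the other GCA libraries were lower. The same held for lysosomal Naglu, at 10.2, 15.9 and 11.7 CPM, and for Thbd, at 5.66, 9.08 and 7.68 CPM. Among genes that fell, Ly6g was at 17.4, 11.7 and 15.3 CPM and Ccr2 at 43.7, 24.9 and 38.5 CPM in the GCA libraries. The monocyte and macrophage markers summed to 7593, 5462 and 7904 CPM in them. Other genes did not show this: Adora3 was at 2.42, 2.32 and 1.79 CPM and Tlr5 at 3.46, 3.52 and 5.14 CPM in the GCA libraries, where replicate 4 lay within or near the TCA values. These are values of single libraries, no test was made on them, and the genes were chosen after their values were seen.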
